A study of Drosophila melanogaster with 3 samples.

Results

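The vacuolar proton pump, or V-ATPase, was examined through its subunit genes, which in Drosophila melanogaster carry the prefix Vha. Members were all genes whose single symbol in the array's probe-to-gene table starts with Vha, with the brightest probe set by mean log2 signal standing for each gene. The choice gave 31 genes on 32 probe sets, of 11981 named genes on the array. They code for 14 kinds of subunit or accessory protein, and 8 of these kinds have several genes.

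RNA from adult heads was hybridised to 3 Affymetrix arrays, 1 for each genotype. The control flies carried the p247-Gal4 driver (MB247-Gal4), which acts in the mushroom bodies, and tub-gal80[ts], a temperature-sensitive repressor of Gal4. PKA-DN flies carried the same driver and repressor with UAS-PKA-DN, and PKA-CA flies carried them with UAS-PKA-CA. By their names, these transgenes encode protein kinase A (PKA) in a version that blocks its activity and in a version that is always active. The submitted design text couples higher and lower PKA activity with these transgenes the other way round, and PKA activity was not measured on the arrays, so the comparisons below are named by transgene. All 3 groups were raised at 18 °C to an age of 3 days as adults, then kept at 32 °C for 12 to 16 h, which relieves the repression, and were labelled as 4 to 6 days old. Heads were shaken off frozen bodies and sieved. Because RNA came from whole heads, fewer cells of a type and less RNA per cell cannot be told apart. Mushroom body cells make up little of a head, so a difference confined to them would be diluted in these signals. With 1 array per genotype, no value has a replicate error and no difference could be tested.

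The V-ATPase is a rotary motor of a cytosolic sector, V1, which hydrolyses ATP, and a membrane sector, Vo, which carries protons. Subunits A and B form the V1 head, D and F the central stalk, and C, E, G and H the outer stalks and their regulation. In Vo, subunit a and the ring of proteolipids c and c'' form the proton path, d links the ring to the central stalk, and e is a small membrane protein. The pump acidifies lysosomes and endosomes in every cell. In neurons it also drives the loading of transmitters into synaptic vesicles, and in the fly's renal tubules and other epithelia it energises ion transport at the cell surface. PKA is known to promote assembly of V1 with Vo in blowfly salivary glands, a step that involves the protein and not its transcript.

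Head RNA was present as labelled. All 4 neuron markers that had a probe set, all 5 glial markers and all 3 photoreceptor markers were above the highest negative control on every array, whereas all 5 testis and male tract markers, 4 of 5 gut markers and 4 of 5 renal tubule markers were not above it on any. The summed signal of 5 muscle markers was 8429 in control, 12688 in PKA-DN and 13197 in PKA-CA heads, and that of 6 blood cell markers was 5023, 2553 and 3053. In the same order it was 4759.7, 4109 and 4545 for 4 neuron markers, 67393, 74844 and 60136 for 4 head fat body markers, and 999, 841 and 301 for 5 oenocyte and cuticle markers. All 4 neuron markers were lower in PKA-DN than in control heads, with a median log2 ratio of -0.44, and all 4 fat body markers had a negative PKA-CA over PKA-DN ratio, with a median of -0.38. Their part in the ratios below was not tested. The 3'/5' signal ratio of actin, a measure of RNA integrity, was 1.79, 2.29 and 1.70 in the same order.

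The members separated into bright and dim genes. A member was called bright when its probe set was in the upper 50% of named genes, which meant a mean signal of 254 or more, and dim when it was not above the highest of 99 negative-control probe sets on any array. For control, PKA-DN and PKA-CA in turn this level was 77.0, 77.8 and 70.9. There were 17 bright genes, 13 dim genes and 1 between, Vha36-3. By its definition the bright class holds 5991 of all 11981 named genes. The share of all named genes in the dim class was not determined, so whether 13 of 31 is unusual cannot be said. Bright members had signals between 636 and 12397, and 16 of them were in the upper 25% of named genes. Dim members had signals between 0.855 and 62.2. The bright member nearest the boundary was VhaM9.7-c with a mean signal of 744, and below it came Vha36-3 with 209 and then VhaAC39-2 with 48.8. Signals of different probe sets depend on their probes as well as on transcript abundance. The bright call ranks probe sets among all named genes and shares this limit. Only the dim call is set against the background level, but it too depends on the probes, and members are not ranked by transcript abundance. All 13 dim genes had probe sets with the plain suffix _at, as did 10 of 17 bright genes. The other bright genes had the suffix s_at or a_at.

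**Figure D1:**
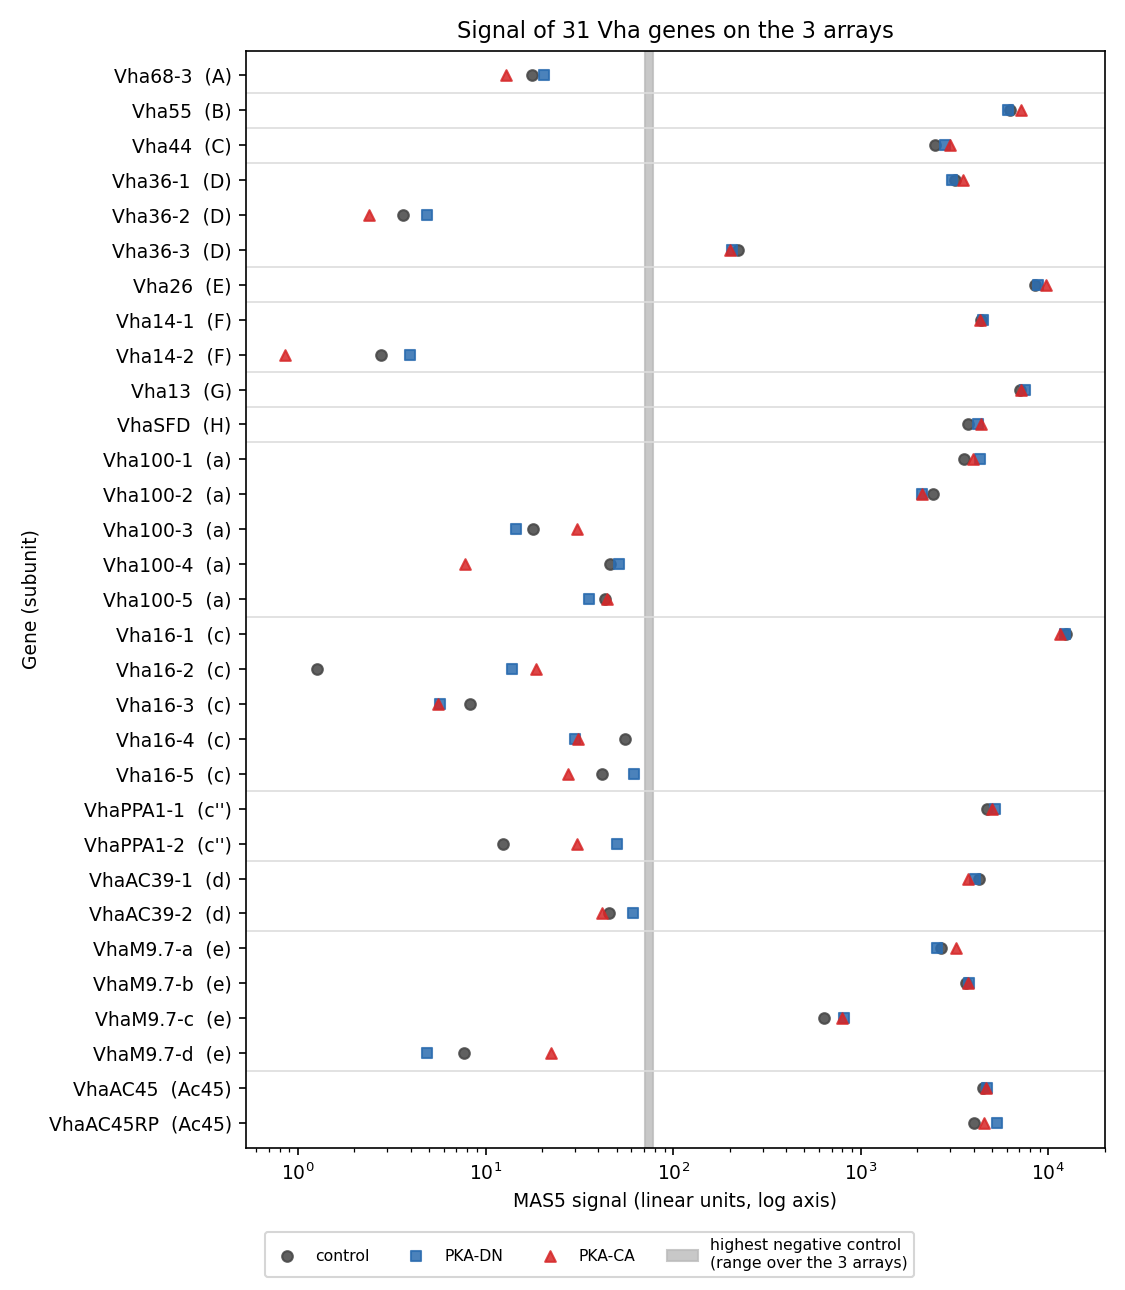
MAS5 signal (linear units on a log axis) of the 31 Vha genes in control, PKA-DN and PKA-CA heads, 1 array each, ordered by subunit. The 17 bright genes lie at 636 or more on every array, the 13 dim genes lie at 62.2 or less, left of the grey band that marks the highest negative control, and Vha36-3 lies between.

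Most V1 subunits had a bright gene, and in the families with paralogues the others were dim, except Vha36-3. Subunits B, C, E, G and H are each covered by a single member, Vha55, Vha44, Vha26, Vha13 and VhaSFD, and all 5 were bright. The central stalk subunit D has 3 genes, of which Vha36-1 was bright, Vha36-3 was above background at 221 on the control, 207 on the PKA-DN and 200.2 on the PKA-CA array, and Vha36-2 was dim at 3.63, 4.89 and 2.41. For the stalk subunit F, Vha14-1 was bright and Vha14-2 was dim at 2.79, 3.96 and 0.855. Of the catalytic subunit A the only member was Vha68-3, which was dim at 17.6, 20.5 and 12.9. The other A subunit genes, Vha68-1 and Vha68-2, had no probe set naming them alone and were not used.

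In the membrane sector the same split was found, except in subunits a and e, which each had several bright genes. The 100-kDa subunit a has 5 genes. Vha100-1, which is known for its part in synaptic vesicle release in fly neurons, and Vha100-2 were bright. Vha100-3, Vha100-4 and Vha100-5 were dim, with 17.8, 46.1 and 43.4 on the control array. Vha100-4, known from the acid-secreting cells of the fly midgut, had 51.8 in PKA-DN and 7.81 in PKA-CA heads, all below the highest negative control, so no fold is given.

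The proteolipid c, which forms the rotating ring, also has 5 genes. Only Vha16-1 was bright among them, and Vha16-2, Vha16-3, Vha16-4 and Vha16-5 had signals between 1.27 and 62.2 over the 3 arrays. Vha16-2, for instance, had 1.27, 13.8 and 18.6, values within the range of the negative controls. The c'' proteolipid was represented by VhaPPA1-1, which was bright, and VhaPPA1-2, which was dim at 12.3, 50.2 and 30.9. Subunit d was represented by VhaAC39-1, which was bright, and VhaAC39-2, which was dim at 45.4, 61.3 and 41.8. Of the 4 genes for subunit e, VhaM9.7-a, VhaM9.7-b and VhaM9.7-c were bright and VhaM9.7-d was dim at 7.67, 4.90 and 22.2. Both genes of the accessory glycoprotein Ac45, VhaAC45 and the related VhaAC45RP, were bright.

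Of 8 families with several genes, 5 therefore had 1 bright gene and 3 had 2 or more. The dim class depended on the background level used, and the counts that follow were not made for all named genes. With the 95th percentile of the negative controls in place of the highest, an alternative chosen after seeing the data, 7 members and not 13 were below it on every array. Of the 13 dim genes, 6 passed it on at least 1 array and 0 on all 3. At the median of the negative controls, which was 8.76, 10.5 and 5.43 on the 3 arrays, 8 dim genes were above it on every array and 2, Vha14-2 and Vha36-2, on none.

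Gene structure as RefSeq annotates it, which the choice of members did not use, was set beside the brightness classes as a description. All 31 genes matched a RefSeq gene of the assembly Release 6 plus ISO1 MT. Several annotated transcripts were listed for 13 of 17 bright genes and for 3 of 13 dim genes. The median gene length was 2214 bases for bright and 1300 for dim genes, with ranges of 659 to 11825 and 494 to 5577 that overlap widely. Transcripts and lengths were not counted over all bright and dim named genes. These contrasts therefore cannot be called particular to the pump genes. The longest bright gene was Vha44 and the shortest Vha14-1. Some dim paralogues lie next to other pump genes, with no protein-coding gene between them. These were Vha100-4 beside the bright Vha100-2, Vha16-2 beside Vha16-3, which are both dim, and Vha68-3 beside Vha68-2. VhaPPA1-2 is separated from VhaPPA1-1 by 1 gene, RpS5b. Arms 3R and 2R carry most of the members, 12 and 8 of the 31.

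PKA-DN heads were first set against control heads. Across the 17 bright members 11 had a higher signal in PKA-DN and 6 a lower one, against 48.3% higher and 51.7% lower among all 5991 genes compared, and the median log2 ratio was 0.05 against -0.01 for all. No bright member differed by 1.5-fold, where 1.49% of all genes were higher and 1.44% lower by that much. A 1.2-fold difference, a limit chosen after values were seen, was passed by 3 members upward (9.90% of all genes) and 0 downward (11.1% of all genes). Of the 17 members 10 lay within 0.1 of 0 on the log2 scale, as did 39.4% of all genes.

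VhaAC45RP had the highest ratio in this comparison. Its signal was 4002 in control, 5304 in PKA-DN and 4551 in PKA-CA heads, which gave a log2 ratio of 0.41 (1.33-fold) for PKA-DN over control. VhaM9.7-c followed with 636, 814 and 796, a log2 ratio of 0.35 (1.28-fold), and it is the dimmest of the bright members. Vha100-1 had 3556, 4332 and 3949.9, a log2 ratio of 0.28 (1.22-fold). All 3 genes code for proteins of the membrane sector or its accessory protein, as do 8 Vo and 2 accessory genes among the 17 bright members. The 8 Vo members together were split, with 4 higher and 4 lower. In each of the 3 genes the control array was the lowest, which against the PKA-DN array follows from how they were chosen. The lowest ratio was that of Vha100-2, with signals of 2418, 2115 and 2115 and a log2 ratio of -0.19.

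V1 genes lay close to the control in PKA-DN heads, with a median log2 ratio of 0.05 over 7 members. Vha44, the C subunit that clamps the sectors together and is released when the pump disassembles, had 0.18 (2481 on the control and 2812 on the PKA-DN array). VhaSFD, the H subunit that also regulates assembly, had 0.18 (3738 and 4222). Vha13 of the outer stalk had 0.08 (7112 and 7519.9), Vha26 of the same stalk 0.05 (8551 and 8848), and Vha14-1 of the central stalk 0.03 (4369 and 4466). Vha55, the B subunit, had -0.04 (6273 and 6113) and Vha36-1 had -0.06 (3193 and 3070.1).

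The 8 Vo members had a median of 0.02 in PKA-DN over control and were split 4 to 4; without VhaM9.7-c, which is outside the upper 25% by signal, the median was -0.01. VhaPPA1-1 had 0.16 (4688 and 5234), VhaM9.7-b 0.05 (3667 and 3804) and VhaAC39-1 -0.06 (4271 and 4088). VhaM9.7-a had -0.08 (2687 and 2549). For Vha16-1, the only bright gene of proteolipid c, the ratio was -0.01 (12397 and 12339). It took the opposite sign under quantile normalization (0.03) and cyclic loess (0.01). VhaAC45 had 0.09 (4470.05 and 4744).

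**Figure D2:**
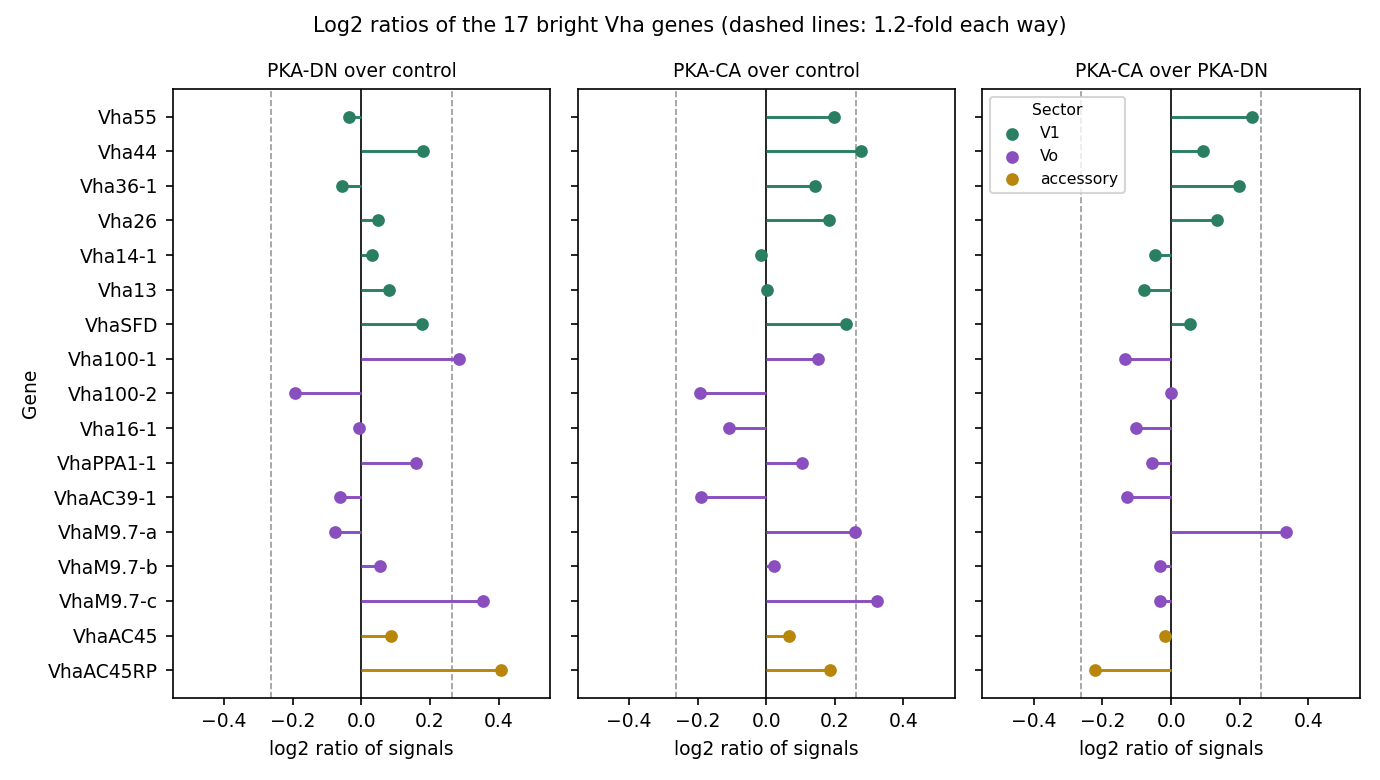
Log2 ratios of signals for the 17 bright Vha genes in the 3 comparisons, coloured by sector, with dashed lines at 1.2-fold each way and 1 array per genotype. VhaAC45RP, VhaM9.7-c and Vha100-1 pass 1.2-fold in PKA-DN over control, VhaM9.7-c and Vha44 in PKA-CA over control, and VhaM9.7-a in PKA-CA over PKA-DN.

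PKA-CA heads were set against the same control heads. Of the 17 bright members 13 had a higher signal in PKA-CA and 4 a lower one, against 49.5% higher and 50.5% lower among all genes compared, and the median log2 ratio was 0.14 against -0.003 for all. In the upper 25% of genes by signal, to which nearly all bright members belong, 52.3% of genes were higher and the median was 0.01. The number of members higher was 12 with quantile normalization (49.6% of all genes), 11 with arrays centred (44.6%) and 14 with cyclic loess (49.7%), and the median stayed between 0.11 and 0.16. No bright member differed by 1.5-fold, where 1.72% of all genes were higher and 1.89% lower by that much. The 1.2-fold limit was passed by 2 members upward (11.8% of all genes) and 0 downward (13.8% of all genes), a share of members no higher than that of all genes. Of the 17 members 4 lay within 0.1 of 0, against 35.5% of all genes. Both comparisons with control share the control array.

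V1 members had a median log2 ratio of 0.18 in PKA-CA over control, with 6 of 7 higher. Vha44 had 0.28 (1.21-fold), with 3002 on the PKA-CA array against 2481. VhaSFD had 0.23 with 4390.0 against 3738, Vha55 had 0.20 with 7193 against 6273, and Vha26 had 0.18 with 9699.6 against 8551. Vha36-1 had 0.14 with 3525 against 3193. Vha36-3, the D subunit gene between the bright and dim classes, had -0.09 in PKA-DN and -0.14 in PKA-CA over control. The remaining bright V1 members were at the control level within 0.02, and their sign depended on the scaling. Vha13 had 0.001 (7119 against 7112; -0.03 with arrays centred), and Vha14-1 had -0.01 (4325 against 4369; 0.01 with cyclic loess).

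Vo members were spread to both sides, with 5 higher, 3 lower and a median of 0.06. VhaM9.7-c had 0.32 (1.25-fold) and VhaM9.7-a had 0.26, with 3215 on the PKA-CA array against 2687, just short of 1.2-fold. Vha100-1 had 0.15 and VhaPPA1-1 0.10, the latter with 5038 against 4688. VhaM9.7-b had 0.02 with 3722 against 3667, and its sign turned with quantile normalization (-0.02) and with arrays centred (-0.01). On the lower side were Vha100-2 at -0.19, VhaAC39-1 at -0.19 (3739.9 against 4271) and Vha16-1 at -0.11 (11496 against 12397). A second probe set for Vha16-1 had signals of 5996, 5709 and 4663. Its log2 ratio over control was -0.07 for PKA-DN heads and -0.36 for PKA-CA heads, so both probe sets were lowest on the PKA-CA array but differed in size. The value of -0.36 is past 1.2-fold downward, but the counts use only the brightest probe set. With both probe sets averaged, Vha16-1 moved from -0.11 to -0.24 in PKA-CA over control. The accessory genes had 0.07 for VhaAC45 (4682 against 4470.05) and 0.19 for VhaAC45RP.

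**Figure D3:**
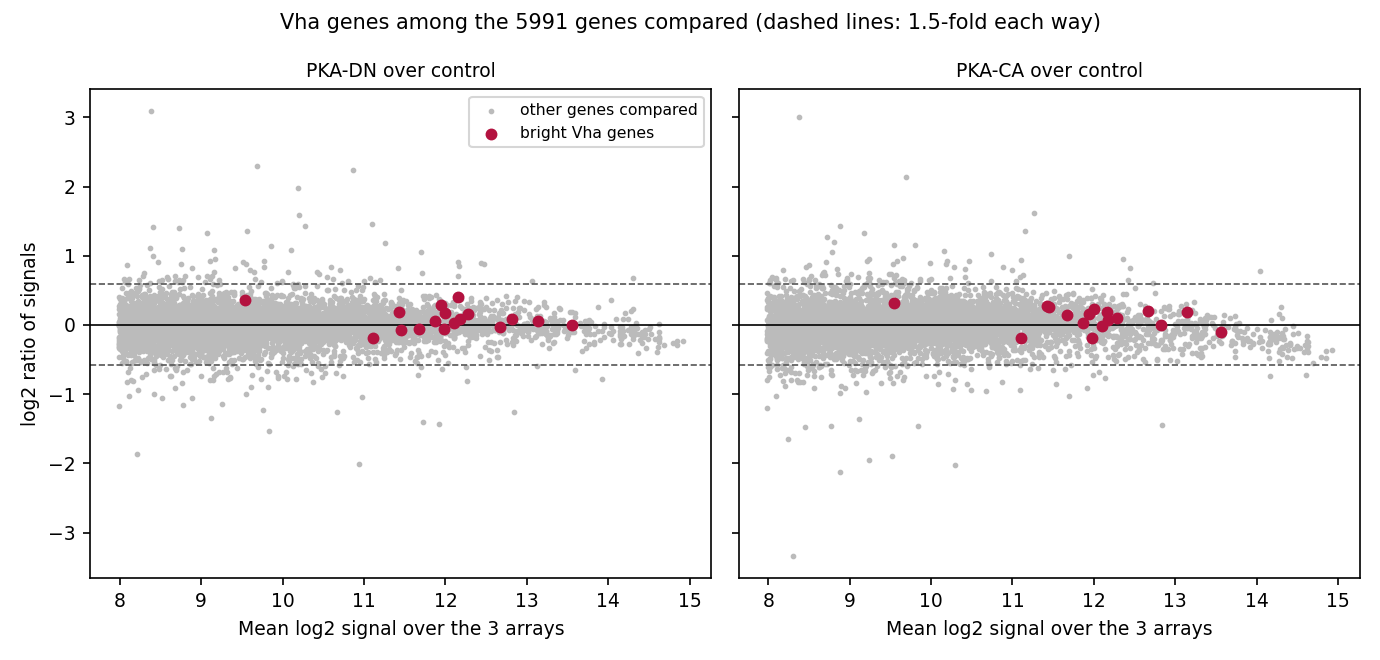
Log2 ratio of signals against mean log2 signal over the 3 arrays for the 5991 genes compared (grey) and the 17 bright Vha genes (red), with dashed lines at 1.5-fold each way. Every bright Vha gene lies inside the 1.5-fold lines in PKA-DN over control and in PKA-CA over control, while single genes among the rest reach log2 ratios of 3.09 and -3.33.

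PKA-CA and PKA-DN heads were compared without the control array. Of the 17 bright members 7 had a higher signal in PKA-CA and 10 a lower one, against 50.2% higher and 49.8% lower among all genes, and the median log2 ratio was -0.03 against 0.001. No bright member differed by 1.5-fold (2.22% of all genes higher and 2.0% lower), and 9 of 17 lay within 0.1 of 0 (35.0% of all genes). VhaM9.7-a alone passed 1.2-fold upward (13.6% of all genes), at 0.33 or 1.26-fold, and 0 members passed it downward (13.4%). The second probe set of Vha16-1, not used in these counts, was at -0.29, past 1.2-fold downward. The V1 median was 0.09, with 5 of 7 members higher, among them Vha55 at 0.23, Vha36-1 at 0.20 and Vha26 at 0.13. The Vo median was -0.04, with 6 of 8 members lower, among them Vha100-1 and VhaAC39-1 at -0.13. VhaAC45RP had -0.22, the lowest of all bright members. Vha100-2, counted among the 7 higher members, was at 2.59e-05 as deposited and below 0 under all 3 other scalings (-0.03 at the lowest). VhaAC45 was at -0.02 and took the opposite sign with quantile normalization (0.01) and cyclic loess (0.001).

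Paralogues that were both bright differed in their ratios by amounts that varied with the pair and the comparison. Vha100-1 and Vha100-2 encode alternative versions of subunit a, and the log2 ratio of the first exceeded that of the second by 0.48 in PKA-DN over control and by 0.34 in PKA-CA over control. Other scalings gave differences between 0.45 and 0.48 and between 0.34 and 0.36. The 2 genes lay on opposite sides of the control on both arrays, each by 1.22-fold or less. Among subunit e genes, VhaM9.7-c exceeded VhaM9.7-b by 0.30 in both comparisons with control. The ratio of VhaM9.7-a minus that of VhaM9.7-c was -0.43 for PKA-DN and -0.06 for PKA-CA heads. VhaM9.7-a minus VhaM9.7-b was -0.13 and 0.24 in the same order. VhaAC45RP exceeded VhaAC45 by 0.32 in PKA-DN and by 0.12 in PKA-CA. In PKA-CA over PKA-DN, VhaM9.7-c minus VhaM9.7-b was -0.001, Vha100-1 minus Vha100-2 was -0.13 and VhaAC45RP minus VhaAC45 was -0.20. There VhaM9.7-a exceeded both VhaM9.7-b and VhaM9.7-c by 0.37. These differences rest on 1 array per genotype and were not tested.

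Genes that share a pathway with the pump were described in 6 lists by their bright members. Among genes for assembly and regulation, 6 of 8 names had a probe set, and 4 of these 6 were bright. Of the 4, 2 were higher and 2 lower than control in each of PKA-DN (median -0.09) and PKA-CA (median -0.04). ATP6AP2, the prorenin receptor and a further accessory subunit that is named in the fly without the Vha prefix, had 4171 on the control, 4413 on the PKA-DN and 4181 on the PKA-CA array. Its log2 ratios over control were 0.08 and 0.004. Rbcn-3B, a rabconnectin that acts in pump assembly, had -0.23 and 0.04, and mustard (mtd), a TLDc-domain gene, had -0.27 and -0.31.

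Lysosomes are acidified by the pump. Of 16 bright lysosome genes 11 were lower in PKA-DN and 5 higher, where 51.7% of all genes were lower, and 13 were lower in PKA-CA and 3 higher, where 50.5% of all genes were lower. They had median log2 ratios of -0.08 and -0.14 in this order, whereas the bright Vha genes had medians of 0.05 and 0.14. The difference between the lists was not tested. The cathepsin gene CtsL1 had 19488 on the control, 16720 on the PKA-DN and 15397 on the PKA-CA array, the highest on the control. Among the higher genes, Cln3 had log2 ratios of 0.08 (PKA-DN) and 0.41 (PKA-CA), and spin had 0.22 and 0.18. Past 1.5-fold were Hexo2, a hexosaminidase gene, at -0.69 in PKA-DN (1229 against 1985), and the tetraspanin gene Tsp42Ee at -0.63 in PKA-CA (2673 against 4145). Genes for TORC1 signalling at the lysosome, where the pump takes part in amino acid sensing, had medians of 0.09 (PKA-DN) and -0.19 (PKA-CA) over 8 bright genes, none past 1.5-fold.

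Transporters that use the proton gradient to fill synaptic vesicles were at a median of -0.05 for PKA-DN heads and 0.23 for PKA-CA heads over 4 bright genes. The acetylcholine transporter gene VAChT had 2242 on the control, 2189 on the PKA-DN and 2699 on the PKA-CA array, and the monoamine transporter gene Vmat had 978, 936 and 1272. In both, the PKA-CA array was the highest. The glutamate transporter gene VGlut had 354, 321 and 321. Chloride and cation exchangers of the same organelles and of the cell surface had medians of -0.05 and -0.003 over 5 bright genes, with ClC-c at -0.05 (PKA-DN) and 0.34 (PKA-CA).

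The mitochondrial ATP synthase is a related rotary machine that runs in the opposite direction, making ATP. Its 11 bright genes were at medians of -0.02 for PKA-DN heads and 0.005 for PKA-CA heads, with 4 and 6 of 11 higher. None passed 1.5-fold. Among them ATPsynbeta, which corresponds to the catalytic subunit A of the pump, had log2 ratios of -0.21 and -0.24, and ATPsynC, the mitochondrial ring proteolipid, had -0.02 and 0.10.

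**Figure D4:**
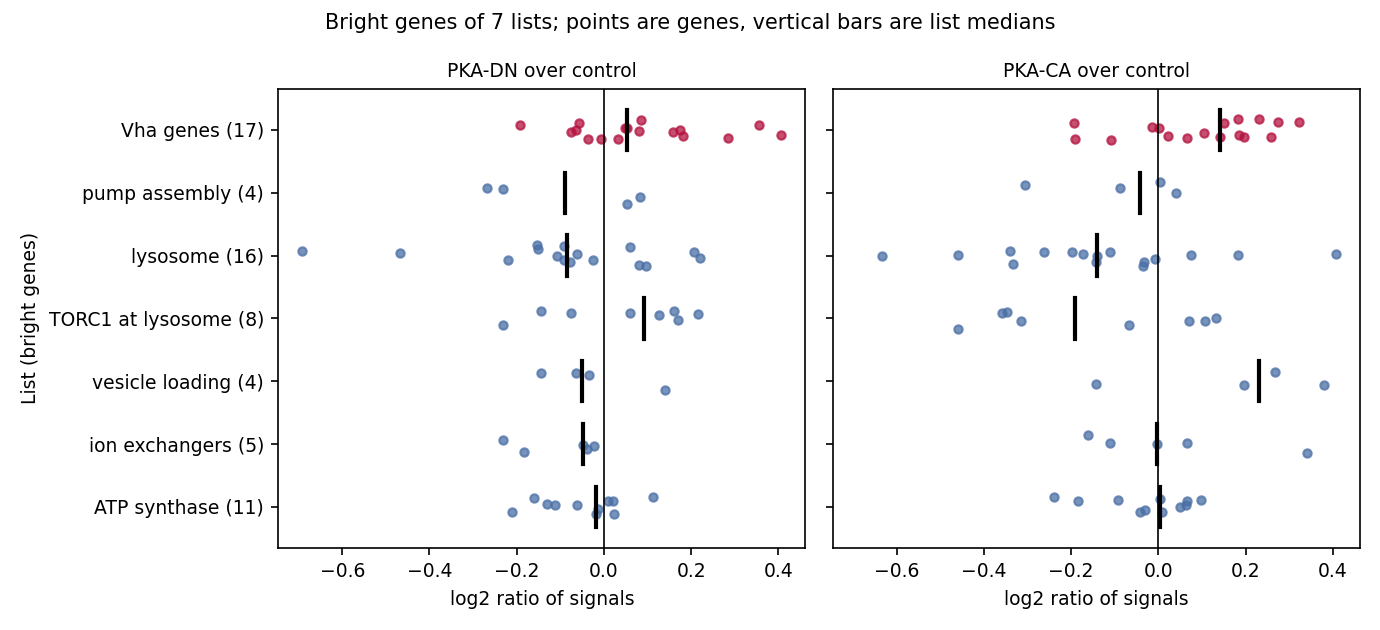
Log2 ratios of signals for the bright genes of the Vha group and 6 related lists (number of genes in brackets) in PKA-DN over control and PKA-CA over control, each point 1 gene, with vertical bars at the list medians. The Vha median is 0.05 (PKA-DN) and 0.14 (PKA-CA), the lysosome median -0.08 and -0.14, and the ATP synthase median -0.02 and 0.005.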

How the data were processed

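Total RNA from adult heads of 3 genotypes was measured on 3 arrays, with 6 ug of RNA per labelling. The deposited values are linear intensity with 1 signal for each probe set. They come from MAS5, per the submitters' processing notes, in a version not given in the sources used here. The mean signal after trimming 2% at each end was 500.01 on every array, so the arrays share a common scale, and the values were used as deposited. MAS5 detection calls were not used here, and 1 of 100 negative-control probe sets, far brighter than the rest, was left out. Log2 was taken of the deposited intensity without a constant. Of 14049 listed probe sets 13646 had 1 symbol, 402 several and 1 none, and 4903 were not listed. Symbols of 13543 were updated through RefSeq gene identifiers.

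Log2 ratios, counts and medians were computed in Python 3.11.15 with pandas 2.3.3, and other scalings with limma 3.58.1 in R 4.3.3. Only the counting step for fold differences was tried on simulated data. How noise between arrays affects the fold counts was not tested. No test between groups was possible, and having 1 array per group limits the precision. Alternatives were quantile normalization, centring, cyclic loess, averaging of probe sets, 64 added before log2, the upper 25% by signal and no filter. The named genes are all members, together with those listed genes that passed 1.5-fold and a few further examples chosen after their values were seen. Members and lists were chosen with earlier results of these data known.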

Additional observations from a re-analysis of the deposited data

How the results depend on the processing

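The medians over bright Vha genes had the same sign in all 3 comparisons, and moved by less than 0.1 (log2), under all 3 other scalings, averaging of probe sets, 64 added before log2 and the upper 25% by signal. That tolerance is wider than every median but that of PKA-CA over control, and the median between the PKA arrays ranged from -0.064 with arrays centred to -0.018 with cyclic loess. In the upper 25% the Vo median for PKA-DN over control reversed to -0.0068. With no filter on signal, which adds dim genes whose ratios are made of background, the median was 0.033 over all members and 0.0014 over V1 members for PKA-CA over control, and the V1 median for PKA-CA over PKA-DN reversed to -0.046. Counts then moved to 19 higher and 12 lower for PKA-DN over control, 13 lower for PKA-CA over control, and 12 higher and 19 lower for PKA-CA over PKA-DN, where 49.1%, 45.3% and 45.7% of all 11981 genes were higher. Members past 1.5-fold became 4, 9 and 8 in the 3 comparisons (23.6%, 25.7% and 25.7% of all genes), and those past 1.2-fold 14, 13 and 12 (45.0%, 48.3% and 49.0%). The 1.2-fold count for PKA-DN over control was 2 with quantile normalization, where Vha100-1 fell short at 0.25, and 2 in the upper 25%. For PKA-CA over control it was 1 with quantile normalization, with arrays centred and in the upper 25%, and 3 with cyclic loess. That for PKA-CA over PKA-DN was 2 with quantile normalization and with cyclic loess. With the 95th percentile of the negative controls, 7 members were dim. No paired analysis was possible because each group has 1 array. Signals under the highest negative control limit what can be said of the dim paralogues.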
